A study of Mus musculus with 6 samples.

Results

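The 35 genes described here make cholesterol and fatty acids or control that synthesis, and they were taken by symbol from 36793 gene IDs quantified in lumbar dorsal root ganglia of mice. They comprise 18 genes of cholesterol synthesis, 11 genes of fatty acid synthesis, and 6 others, the regulators Srebf1, Srebf2, Scap and Insig1, the sterol carrier Stard4 and the lipid phosphatase Lpin1. They were chosen by pathway, with no threshold on a measured value. In the series the gene for GluN1, a subunit that every NMDA receptor needs, was deleted in Schwann cells, which ensheathe peripheral axons, and the study compared 3 knockout mice, numbered 4 to 6, with 3 wild-type mice, numbered 1 to 3. The labels give neither the Cre driver nor the strain, age or sex of the mice, and no treatment. They name Schwann cells as the cell type, but the RNA came from whole ganglia. In the deposited TPM (a level scaled to transcript length and library size), 10 sensory neuron markers summed to 15134 to 24086 per library and 12 myelinating Schwann cell markers to 5254 to 7099.

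Cholesterol is a major lipid of myelin, the membrane that Schwann cells wrap around axons, and these cells make much of it themselves. The pathway joins acetyl-CoA units into mevalonate, then isoprenoids, squalene and lanosterol, and trims lanosterol to cholesterol. Fatty acid synthesis starts from the same acetyl-CoA, and its products are lengthened by elongases and unsaturated by desaturases. SREBP transcription factors, encoded by Srebf1 and Srebf2, switch on both branches. SCAP escorts them out of the endoplasmic reticulum when sterol is low, and INSIG proteins hold them back when it is high.

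Promoter sequence is shown for 5 of these genes because SREBP, NF-Y and Sp1 are known to act together at promoters of both branches. RefSeq promoters (GRCm38.p6) were matched for 28 of the 35 genes, in 35 windows, and the 250 bases before each start were searched on both strands. The motifs were chosen with results of these data known. TCACNCCA, a core of the sterol regulatory element, was found in 3 of the 35 windows (8.57%), against 3.67% of all 32851 promoter windows, in Hmgcs1, Msmo1 and Srebf2. CCAAT, the NF-Y box, was in 62.9% of these windows and 33.8% of all. GGGCGG, an Sp1 box, was in 71.4% and 32.7%, and the E-box CACGTG in 17.1% and 6.02%. Below, capitals mark matches to these motifs on either strand, and each stretch stops before the more upstream of the RefSeq and GENCODE starts. Hmgcs1 and Lss were picked from the 7 cholesterol genes that were lower in the knockouts without overlap in CPM. They need not represent that group: Fdps and Fdft1 had no matched promoter, and the Acat2 window held 1 match, to GGGCGG. Hsd17b7 is the cholesterol gene with a log2 fold change above 0, Fasn had the highest log2 fold change, and Srebf2 encodes a regulator.
Hmgcs1, chr13:119690101-119690350, plus strand: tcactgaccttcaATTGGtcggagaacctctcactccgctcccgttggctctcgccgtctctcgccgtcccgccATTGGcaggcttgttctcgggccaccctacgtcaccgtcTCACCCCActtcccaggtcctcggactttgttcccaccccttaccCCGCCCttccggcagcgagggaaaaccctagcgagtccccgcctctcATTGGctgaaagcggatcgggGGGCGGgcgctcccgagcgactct
Lss, chr10:76531355-76531587, plus strand: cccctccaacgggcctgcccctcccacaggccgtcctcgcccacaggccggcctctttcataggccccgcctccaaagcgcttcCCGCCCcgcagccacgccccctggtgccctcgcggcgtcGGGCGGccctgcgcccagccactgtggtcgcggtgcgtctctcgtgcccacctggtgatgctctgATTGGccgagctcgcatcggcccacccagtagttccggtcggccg
Hsd17b7, chr1:169969242-169969455, minus strand: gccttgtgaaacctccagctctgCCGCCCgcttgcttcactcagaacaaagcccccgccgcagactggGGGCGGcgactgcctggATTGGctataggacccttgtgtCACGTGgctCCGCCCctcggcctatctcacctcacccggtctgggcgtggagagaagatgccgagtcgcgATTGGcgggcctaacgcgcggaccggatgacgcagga
Fasn, chr11:120824548-120824797, minus strand: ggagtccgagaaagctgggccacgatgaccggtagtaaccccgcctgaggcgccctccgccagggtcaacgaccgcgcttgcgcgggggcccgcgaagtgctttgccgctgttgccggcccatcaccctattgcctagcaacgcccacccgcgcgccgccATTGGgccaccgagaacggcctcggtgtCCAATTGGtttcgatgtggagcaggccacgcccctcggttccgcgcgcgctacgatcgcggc
Srebf2, chr15:82147019-82147180, plus strand: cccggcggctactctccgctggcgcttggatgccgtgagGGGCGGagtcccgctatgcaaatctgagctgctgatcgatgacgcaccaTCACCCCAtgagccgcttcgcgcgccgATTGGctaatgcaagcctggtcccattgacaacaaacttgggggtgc
The Hmgcs1 stretch held 1 sterol regulatory match, 3 CCAAT and 2 GGGCGG matches, none overlapping. In Lss there were 1 CCAAT and 2 GGGCGG matches. Hsd17b7 held 2 CCAAT matches, 3 GGGCGG matches and 1 E-box. Those counts are for the 214 bases shown, and its whole window held 7 matches. The E-box was also in windows of Dhcr7, Sc5d and Insig1, with log2 fold changes below 0, and of Elovl5 and Scap, above 0. Fasn held 3 CCAAT matches, of which the capitals CCAATTGG are a pair that overlap on opposite strands. Srebf2 held 1 sterol regulatory match, 1 CCAAT and 1 GGGCGG in the 162 bases shown, and 6 matches in its whole window. A match is a run of letters only, and binding was not measured.

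Total expected counts were 28526704 to 36249163 per library. Knockout libraries 5 and 6 differed by about the sampling noise (mean chi-square per gene 1.15, where noise alone gives about 1, and 0 of 10258 genes apart at an FDR of 0.05), whereas the other 14 pairs had mean values of 13.2 to 104.04. They were counted as 1 sample, so tests compare 2 knockout samples with 3 wild-type samples. Their values are still given per library, knockout 4, 5 and 6 before wild type 1, 2 and 3. Knockout 4 stood apart by its haemoglobin share, 1.522% of counts against 0.304 to 0.598% in the other 5 libraries. Grin1 itself had 81.5, 116 and 116 CPM (counts scaled to library size with TMM factors) in the knockouts and 68.4, 114 and 74.4 CPM in wild type, with a log2 fold change of 0.21 ± 0.26 (SE). The deletion is described for Schwann cells only, and Grin1 was not measured by cell type. Its level in the whole ganglion therefore cannot test the genotype labels.

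All 35 genes passed the filter on low counts, and the lowest count of any in a library was 943, for Ebp. By TPM in wild type, the levels ran from Scd2 through Hmgcs1, Fdps, Scd1 and Acly at the high end to Lss, Srebf1 and Scap at the low end. Scd2, a stearoyl-CoA desaturase of the nervous system, had a wild-type mean of 804 TPM, and Scap 32.0 TPM. Of the 34 neighbouring pairs in this order, 29 had overlapping wild-type ranges. The 5 steps without overlap were Hmgcs1 above Fdps, Acly above Msmo1, Msmo1 above Fdft1, Fdft1 above Acat2 and Elovl5 above Sc5d.

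**Figure D1:**
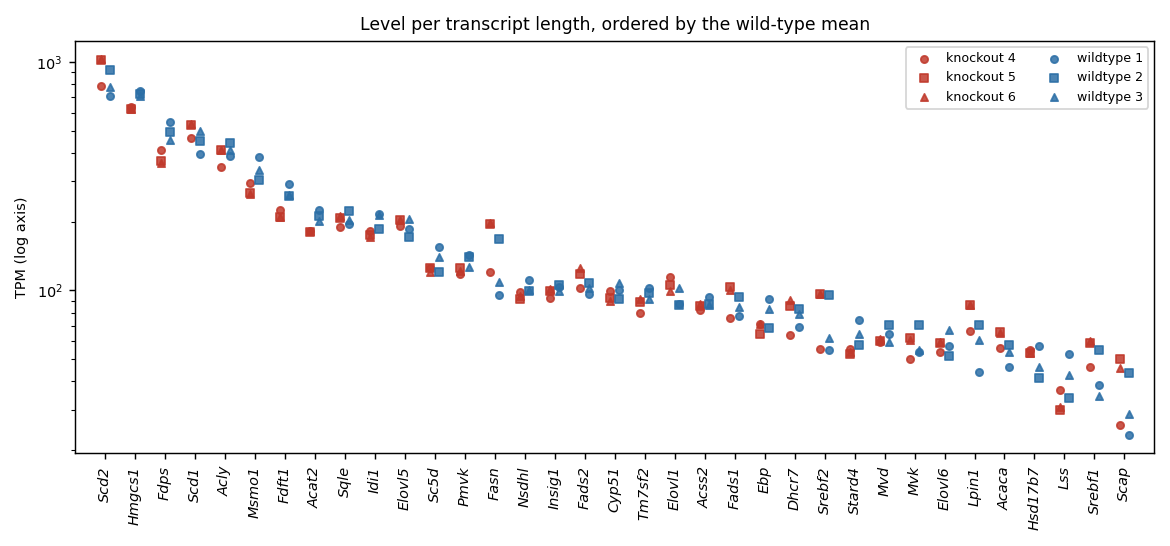
Deposited TPM (log axis) of the 35 genes in each library, ordered by the wild-type mean, with the 3 knockout libraries in red left of the 3 wild-type libraries in blue. Scd2 and Hmgcs1 are at the top, Srebf1 and Scap at the bottom, and for most genes the spread within a genotype covers the step to the next gene.

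The comparison asks whether deletion of GluN1 in Schwann cells changes lipid synthesis genes in the ganglion. None of the 35 passed an FDR of 0.05 over all genes tested (edgeR quasi-likelihood test with Benjamini-Hochberg adjustment), where 0.0952% of all 16809 genes passed. The smallest adjusted p was 0.497, for Fdft1. At an unadjusted p under 0.05 there were 2 lower genes, Fdft1 and Fdps, and 0 higher ones, against 3.99% and 5.15% of all genes. DESeq2 and limma-voom on the same samples, limma on TPM and edgeR on 6 separate libraries (0.871% of all genes called) also gave 0 calls. DESeq2 with libraries 5 and 6 counted as separate mice, an alternative added after seeing the data, called 2, both lower: Fdps (adjusted p = 0.0406) and Fdft1 (adjusted p = 0.0301), where it called 1.84% of all genes lower. That setting counts 2 libraries that cannot be told apart as independent animals. Directions were split by branch. Of the 18 cholesterol genes, 17 had log2 fold changes below 0 with a median of -0.16, and of the 11 fatty acid genes 8 were above 0 with a median of 0.13. Over all genes 49.8% were below 0 and 50.2% above, the median was 0.0, and the middle 50% lay from -0.15 to 0.19.

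**Figure D2:**
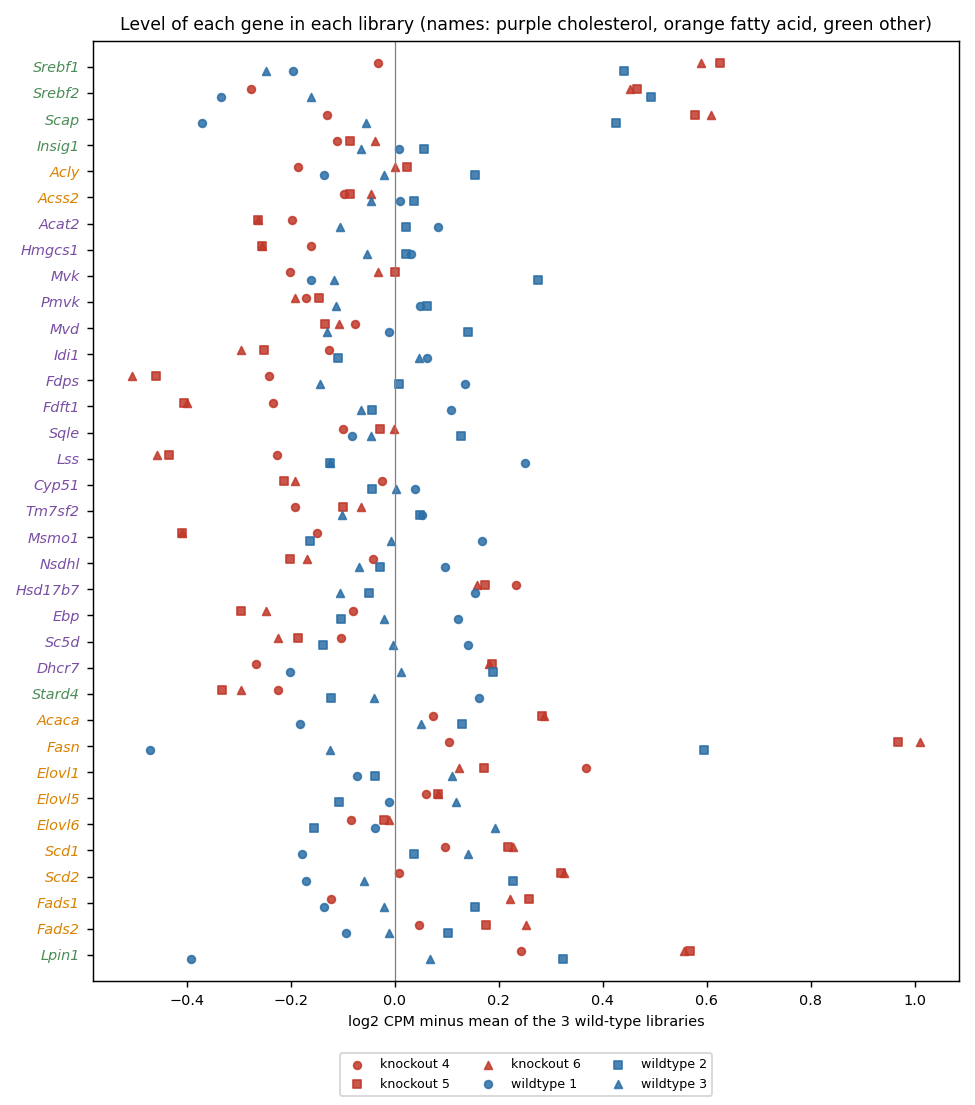
Log2 CPM of each gene in each library minus the mean of the 3 wild-type libraries, in pathway order, with knockout libraries in red and wild-type libraries in blue. Red points lie left of blue ones for Fdps, Fdft1, Lss and Stard4, and for Srebf1, Srebf2, Scap and Fasn wild type 2 lies with knockout 5 and 6.

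The mevalonate steps were examined first. Hmgcs1 (chromosome 13, 119690379 to 119708260, GRCm38), the HMG-CoA synthase that commits acetyl units to the pathway, had 952, 892 and 891 CPM in knockouts and 1087, 1079.5 and 1026 CPM in wild type. All 3 knockout libraries were below all 3 wild-type libraries, with a log2 fold change of -0.20 ± 0.10 (SE; edgeR adjusted p = 0.585). Acat2, the cytosolic acetoacetyl-CoA thiolase upstream of it, had 182, 174 and 174 CPM in knockouts and 221, 212 and 194 CPM in wild type, also without overlap (log2 fold change -0.23 ± 0.11). Pmvk, phosphomevalonate kinase, had 62.5, 63.6 and 61.6 CPM in knockouts and 72.8, 73.5 and 65.1 CPM in wild type, and its groups were likewise separate (-0.17 ± 0.11). Mevalonate kinase Mvk and the decarboxylase Mvd overlapped between groups, with log2 fold changes of -0.11 ± 0.17 and -0.10 ± 0.12. Leaving out wild type 2, where Mvk was at 52.5 CPM against 38.8 and 40 CPM in the other wild-type libraries, put Mvk at 0.04.

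The isoprenoid and squalene steps held the 3 lowest log2 fold changes of the 35 genes. Fdps (chromosome 3, 89093588 to 89101959) makes farnesyl diphosphate, the branch point to sterols, ubiquinone and protein prenylation, and had 228, 196 and 189.9 CPM in knockouts and 296, 271 and 244 CPM in wild type. The groups did not overlap, and the fold was 0.78 (log2 -0.36 ± 0.13, edgeR adjusted p = 0.504). Fdft1 (chromosome 14, 63145150 to 63179578), squalene synthase, the first step given over to sterols, had 297, 264 and 265 CPM in knockouts and 377, 339 and 334 CPM in wild type. It was lower in every knockout library, at a fold of 0.804 (log2 -0.32 ± 0.11, edgeR adjusted p = 0.497). Lss (chromosome 10, 76531588 to 76557138) closes squalene epoxide to lanosterol and had 81.9, 71.0 and 69.8 CPM in knockouts and 114, 87.9 and 87.9 CPM in wild type. Its groups were separate in CPM, and wild type 1 was well above the other wild-type libraries: the log2 fold change was -0.34 ± 0.16, and -0.19 without wild type 1. In TPM the groups overlapped, with 36.8, 30.0 and 30.8 in knockouts and 52.7, 33.8 and 42.5 in wild type, and the isoform-weighted length varied 1.22-fold.

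Idi1, isopentenyl diphosphate isomerase, had 253, 232 and 225 CPM in knockouts and 288, 256 and 285 CPM in wild type, and the groups were close but did not overlap (-0.20 ± 0.11). Sqle, the squalene epoxidase that adds the first oxygen on the way to sterols, had 242, 254 and 259 CPM in knockouts and 245, 283 and 251 CPM in wild type. Its libraries were mixed (-0.05 ± 0.11), unlike those of its neighbours in the pathway. Some of these genes share exon sequence with other annotated genes: 1124 bases of Fdps with Gm43738 on the same strand, and 774 bases of Fdft1 with Ctsb on the opposite strand. Reads from the shared stretch of Fdps, whose isoform-weighted length was 1241 bases, could be assigned to either gene whatever the strand setting. For Fdft1 this depends on the strand setting of the quantification, which is not given in the sources used here. Expected counts of Fdps and of Fdft1 were not whole in any of the 6 libraries.

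After lanosterol, 7 of 8 genes had log2 fold changes below 0. Msmo1, a C4-methylsterol oxidase, was the lowest, with 231, 193 and 193 CPM in knockouts and 288, 229 and 255 CPM in wild type (-0.28 ± 0.14). Knockout 4 lay just above wild type 2, so the groups overlapped. Cyp51, the lanosterol demethylase, Nsdhl, the sterol C4 decarboxylase, and Tm7sf2, a C14 reductase, stood at -0.11, -0.11 and -0.13. Ebp, the sterol isomerase, Sc5d, the C5 desaturase, and Dhcr7, the last reductase to cholesterol, stood at -0.17, -0.16 and -0.03, with overlapping groups in each.

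Hsd17b7 (chromosome 1, 169949535 to 169969241), the 3-ketosterol reductase of the same segment, was the exception. It had 103, 98.8 and 97.7 CPM in knockouts and 97.5, 84.6 and 81.4 CPM in wild type. Every knockout library was above every wild-type library, though knockout 6 exceeded wild type 1 only narrowly, and the log2 fold change was 0.20 ± 0.12 (edgeR adjusted p = 0.626). The separation held in CPM only: in TPM the values were 54.8, 53.3 and 53.1 in knockouts and 57.1, 41.5 and 46.3 in wild type, and its isoform-weighted length varied 1.17-fold. In all, 7 of the 18 cholesterol genes were lower in CPM without overlap between samples, where 15.5% of all genes were, and 1 was higher, where 11.8% were.

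Summed over the 18 cholesterol genes, the deposited TPM came to 2976, 2912 and 2911 in knockouts and 3604, 3323 and 3317 in wild type, or 0.298, 0.291 and 0.291% of all transcripts against 0.36, 0.332 and 0.332%. All knockout sums were below all wild-type sums. The 11 fatty acid genes summed to 2396, 2898 and 2911 TPM in knockouts and 2235, 2643 and 2505 TPM in wild type, which overlap. Relative to the wild-type mean, 17, 15 and 15 of the 18 cholesterol genes were below it in knockouts 4, 5 and 6, against 4, 9 and 14 in wild type 1, 2 and 3. That count varied widely within wild type, and the medians of the 18 genes did not overlap between genotypes (-0.15, -0.21 and -0.21 in knockouts, 0.07, -0.01 and -0.07 in wild type, log2). Wild-type values centre on the wild-type mean by construction, so these counts and medians are not an even comparison. Knockouts 5 and 6 count as 1 sample, and the 18 genes are not independent replicates of the genotype.

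**Figure D3:**
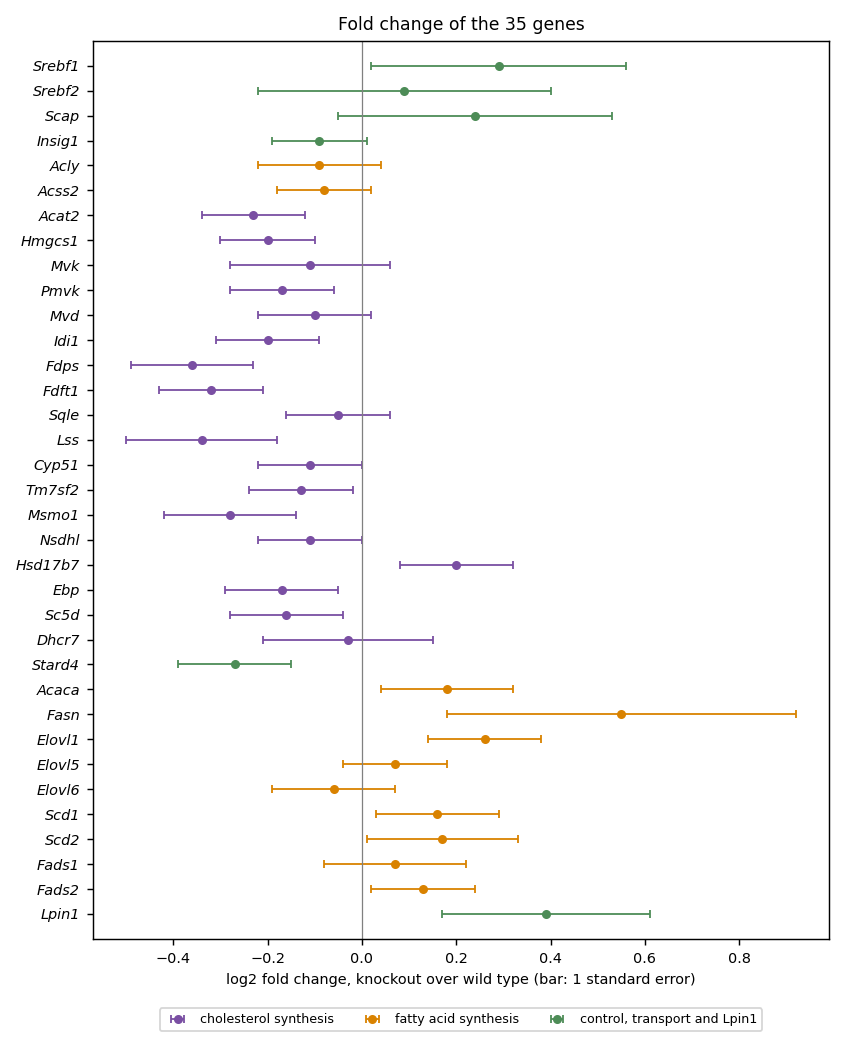
Log2 fold change, knockout over wild type, of each of the 35 genes in pathway order, with bars of 1 standard error from the edgeR fit. Cholesterol genes other than Hsd17b7 lie left of 0, down to -0.36 for Fdps, and most fatty acid genes lie right of it, up to 0.55 for Fasn.

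Beyond the enzymes, Stard4 and Insig1 both had log2 fold changes below 0. Stard4, a carrier that moves cholesterol between membranes and is itself an SREBP-2 target, had 124, 115 and 118 CPM in knockouts and 162, 133 and 141 CPM in wild type. It was lower in every knockout library (-0.27 ± 0.12, edgeR adjusted p = 0.569). Insig1, which retains the SCAP complex and is induced by it, had 116, 118 and 122 CPM in knockouts and 126, 130.3 and 119.7 CPM in wild type, with overlap (-0.09 ± 0.10).

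Among the regulators, Srebf1 had 51.4, 81.1 and 79.1 CPM in knockouts and 45.9, 71.4 and 44.3 CPM in wild type. Wild type 2 was with knockouts 5 and 6, and knockout 4 with wild type 1 and 3, so genotype did not order the libraries (0.29 ± 0.27). Srebf2 had 129, 216 and 214 CPM in knockouts and 124, 220.1 and 139.9 CPM in wild type, the same split of libraries (0.09 ± 0.31). Scap split likewise, with 49.0, 80 and 81.8 CPM in knockouts and 41.5, 72.0 and 51.6 CPM in wild type (0.24 ± 0.29). Without knockouts 5 and 6 these 3 values were -0.07, -0.32 and -0.17.

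GC content was set beside that split. The transcripts of Srebf1, Srebf2, Scap and Fasn are 57.9 to 59.1% GC, in the highest of 4 equal GC classes of the genes tested (54.4 to 74.2%). Of the 8 lipid genes in that class, Mvd and Pmvk, at 59 and 57% GC, did not split in this way: Mvd had 48.0, 46.1 and 47.0 CPM in knockouts and 50.2, 55.8 and 46.2 CPM in wild type. Mvk and Fads2, at 56.3 and 54.4% GC, did split, as Srebf1, Srebf2, Scap and Fasn did. Fads2 had 70.3, 76.9 and 81.1 CPM in knockouts and 63.8, 73.1 and 67.6 CPM in wild type. Below that class, at 48.6 to 52.8% GC, Dhcr7, Fads1, Acly, Lpin1, Scd2, Acaca and Sqle split in the same direction. The remaining lipid genes below that class did not. Over the 4146 genes of that class, the median deviation from the mean of the libraries was -0.06, 0.13 and 0.14 in knockouts 4, 5 and 6 and -0.2, 0.13 and -0.11 in wild type 1, 2 and 3 (log2). With offsets for each library's GC trend the log2 fold changes were 0.16 for Srebf1, -0.04 for Srebf2, 0.11 for Scap and 0.42 for Fasn, while Fdft1 was at -0.38 and Fdps at -0.40. The offsets left 17 of 18 cholesterol genes below 0, with a median of -0.2, and put the fatty acid median at 0.11.

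At the start of both branches, the 2 suppliers of cytosolic acetyl-CoA had log2 fold changes near 0. Acly, ATP citrate lyase, had 616, 712 and 701 CPM in knockouts and 638, 780 and 691 CPM in wild type, with mixed libraries (-0.09 ± 0.13). Acss2, which makes acetyl-CoA from acetate, had 98.4, 99.2 and 102 CPM in knockouts and 106, 108 and 102 CPM in wild type (-0.08 ± 0.10). Its knockout samples were lower, but knockout 6 by itself was level with wild type 3.

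Fasn (chromosome 11, 120805846 to 120824547), the fatty acid synthase, had the highest log2 fold change of the 35 genes and also the largest standard error. Its values were 292, 531 and 547 CPM in knockouts and 196, 410.2 and 249 CPM in wild type. Knockout 4 was below wild type 2, so the groups overlapped (0.55 ± 0.37, edgeR adjusted p = 0.677). The value was 0.03 without knockouts 5 and 6, 0.92 without knockout 4 and 0.91 without wild type 2. Its isoform-weighted length also varied, at 5137, 6072 and 6171 bases in knockouts and 4515, 5282 and 5055 bases in wild type, a ratio of 1.37 between the highest and lowest, and on the TPM scale the log2 fold change was 0.36.

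Acaca, acetyl-CoA carboxylase, the committed step before Fasn, had 198, 229 and 229.7 CPM in knockouts and 166, 206 and 195 CPM in wild type. Wild type 2 alone exceeded knockout 4 (0.18 ± 0.14). Elovl1, which elongates saturated very long chains used in sphingolipids, had 59.2, 51.7 and 50 CPM in knockouts and 43.6, 44.7 and 49.5 CPM in wild type. It was the single fatty acid gene that was higher in every knockout library in CPM (0.26 ± 0.12, edgeR adjusted p = 0.574). In TPM knockout 6, at 99.9, lay below wild type 3, at 103. Elovl5, an elongase of polyunsaturated chains, and Elovl6, an elongase of palmitate, overlapped, at 0.07 ± 0.11 and -0.06 ± 0.13.

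The desaturases all had log2 fold changes above 0, and in each the groups overlapped. Scd1, which makes oleate and palmitoleate, had 1057, 1149 and 1156 CPM in knockouts and 873, 1014 and 1089 CPM in wild type (0.16 ± 0.13). Scd2 had 2004, 2488 and 2496 CPM in knockouts and 1771, 2334 and 1914 CPM in wild type (0.17 ± 0.16). Only wild type 2 was above knockout 4, and without knockouts 5 and 6 the value was -2.0e-03. Fads1 and Fads2, the delta-5 and delta-6 desaturases of polyunsaturated fats, stood at 0.07 ± 0.15 and 0.13 ± 0.11. Scd1 and Scd2 are close paralogs and both had expected counts that were not whole in all 6 libraries, so some of their reads were divided between genes.

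Lpin1, the phosphatidate phosphatase that turns new fatty acids toward glycerolipids and also acts in the nucleus, had 174, 218 and 216 CPM in knockouts and 112, 184 and 154 CPM in wild type. Wild type 2 exceeded knockout 4, and the log2 fold change was 0.39 ± 0.22 (edgeR adjusted p = 0.618), the second highest of the 35.

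**Figure D4:**
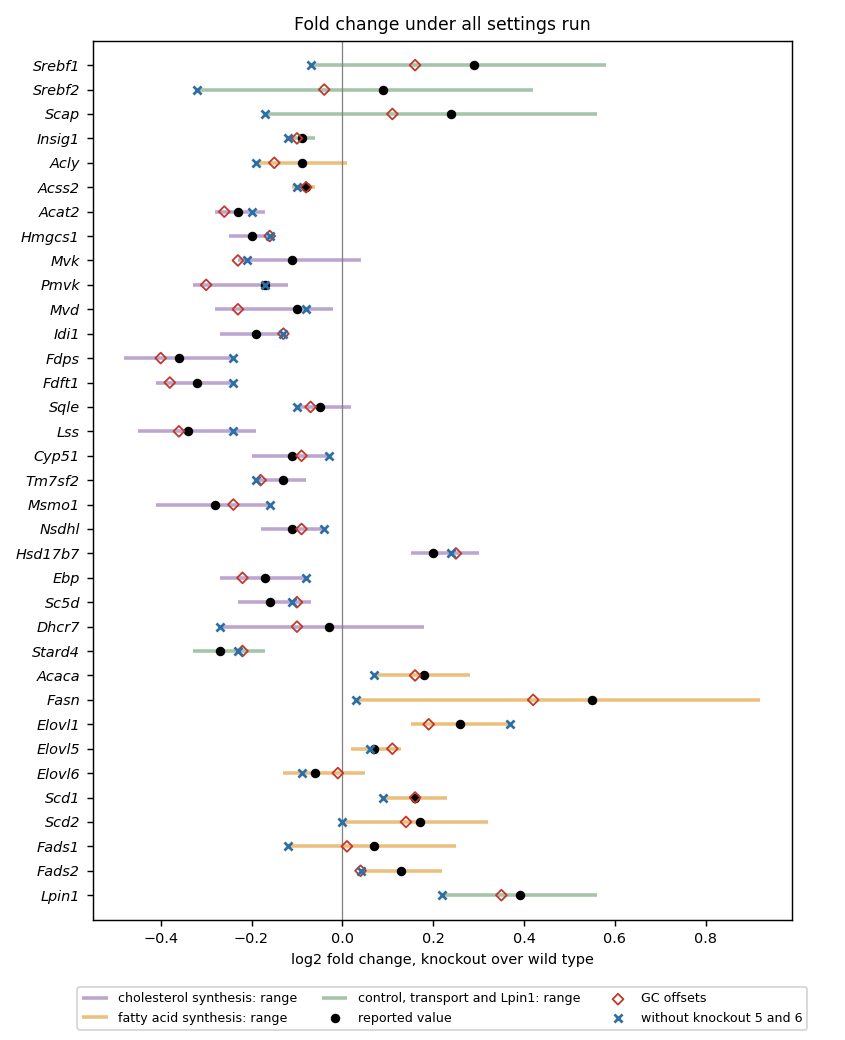
Log2 fold change of each gene as reported (black), with GC offsets (red diamonds), without knockouts 5 and 6 (blue crosses), and the range over all 17 alternatives (bars). Bars of Fdps, Fdft1, Lss, Msmo1 and Stard4 stay below 0, and those of Srebf1, Srebf2 and Scap cross it.

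Over the 17 alternatives, 15 of 18 cholesterol genes (not Mvk, Sqle or Dhcr7), 7 of 11 fatty acid genes and 3 of 6 others kept their sign. With knockouts 5 and 6 left out, 17 cholesterol genes were still below 0 with a median of -0.16, whereas 6 fatty acid genes were above 0, 5 below, and their median was 0.03. Without wild type 2, 14 of 18 cholesterol genes were below 0.

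Markers of the cells that make myelin lipid lay on the other side of 0 from the cholesterol genes. All 12 myelinating Schwann cell markers had log2 fold changes above 0 (median 0.37), and they summed to 6760.4, 6597 and 6585 CPM in knockouts and 4998, 5680.3 and 5794 CPM in wild type. The 7 satellite glia markers were all above 0 as well, at 999.8, 1045 and 1045 CPM in knockouts and 789.8, 792 and 883 CPM in wild type. Summed neuron markers were 21117, 27302 and 27323 CPM in knockouts and 16409, 23609 and 18739 CPM in wild type, again with wild type 2 above knockout 4. Single neuron markers were mixed: of 10, 7 were above 0 and 3 below (median 0.16). Without overlap 1 was higher and 1 lower, against 11.8% and 15.5% of all genes. In each of these lists 0 genes passed in the edgeR test, with 6, 3 and 0 higher at an unadjusted p under 0.05, where 5.15% of all genes were. Endothelial markers were likewise all above 0 (6 of 6, median 0.39), and summed to 88.34, 89.5 and 89.46 CPM in knockouts and 64.87, 61.05 and 72.18 CPM in wild type. Macrophage markers had a median of -0.01, with 3 of 7 above 0. In bulk RNA, fewer cells of a type and less RNA per cell cannot be told apart.

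Adipocytes are rich in Fasn, Acly and Scd1, and 11 of their markers were also examined. Of 11, 7 could be tested and 3 of those were above 0. Their sum was 11.74, 15.18 and 15.27 CPM in knockouts and 15.31, 9.347 and 11.61 CPM in wild type, and Adipoq was at 0.72 CPM at most. Of the hepatocyte markers Serpina1c was at 0 in all libraries. Erythroid markers summed to 15030, 3976 and 3954 CPM in knockouts and 3739, 3183 and 5911 CPM in wild type. Fibroblast markers summed to 1805, 1336 and 1313 CPM in knockouts and 1873, 1410.4 and 1751 CPM in wild type. That list was split, with 2 of 6 above 0, up to 0.63, and 4 below, down to -0.47 (median -0.13). Without overlap 2 were higher and 0 lower, against 11.8% and 15.5% of all genes. Skeletal muscle markers, like erythroid ones, were highest in knockout 4, at 42.23, 5.366 and 5.695 CPM in knockouts and 12.11, 3.965 and 9.223 CPM in wild type. The part that any of these markers play in the lipid genes was not tested.

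Genes of neighbouring pathways were set beside the 35. In the edgeR test 0 genes of any of the 6 lists passed. The list of sterol uptake, efflux and storage lay higher than the others: 19 of 24 genes were above 0, the median was 0.2, and 5 were higher and 0 lower at an unadjusted p under 0.05, against 5.15% and 3.99% of all genes. Without overlap 9 were higher and 3 lower, against 11.8% and 15.5% of all genes. Abca1, the pump that exports cholesterol to apolipoproteins and is induced by oxysterols through LXR, had 190, 194 and 190.1 CPM in knockouts and 111, 119.6 and 143 CPM in wild type. All knockout libraries were above all wild-type libraries (log2 fold change 0.62 ± 0.13, edgeR adjusted p = 0.272), and DESeq2 on the same samples, which called 1.37% of all genes, gave an adjusted p of 0.0149. Scarb1, the HDL receptor, and Soat1, which esterifies cholesterol for storage, were higher without overlap as well, at 0.51 and 0.38 (edgeR adjusted p = 0.312 and 0.372).

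Of 13 other sterol and mevalonate genes, 7 were below 0 (median -0.09). At an unadjusted p under 0.05, 1 was higher and 0 lower, against 5.15% and 3.99% of all genes. Without overlap 1 was higher and 5 lower, against 11.8% and 15.5% of all genes. Acat1, the mitochondrial thiolase, stood at -0.24 and Ch25h, cholesterol 25-hydroxylase, at 0.79 from under 1 CPM in every library. The 16 other SREBP control genes had a median of 0.01, with 0 at an unadjusted p under 0.05. Among them Insig2, the second INSIG, stood at -0.19, Sec24d, a coat protein of the vesicles that carry SCAP, at 0.23, and Mlxipl, the glucose-sensing factor ChREBP, at 0.58 and also under 1 CPM.

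The other fatty acid genes (25 tested) had a median of 0.01, with 2 higher and 1 lower at an unadjusted p under 0.05. Of all genes, 5.15% were higher and 3.99% lower on that criterion. Thrsp, an activator of lipogenesis, stood at 0.39, Elovl2 at 0.28 and Hsd17b12, the ketoacyl reductase of chain elongation, at -0.26. Glycerolipid genes (21 tested) had a median of 0.04, with 2 higher and 1 lower on that criterion. Gpam, the mitochondrial acyltransferase that starts triglyceride synthesis, stood at 0.42, Pisd at 0.30 and Agpat4 at -0.31. Sphingolipid genes (17 tested) had a median of 0.05, with 3 higher and 2 lower on that criterion. There, Fa2h, which hydroxylates the fatty acid of myelin galactolipids, had 31.7, 48.1 and 47.2 CPM in knockouts and 14.5, 25.6 and 26.5 CPM in wild type, without overlap (0.84). Cers6, a ceramide synthase, stood at 0.37 and Gal3st1, the sulfatide sulfotransferase, at 0.36.

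**Figure D5:**
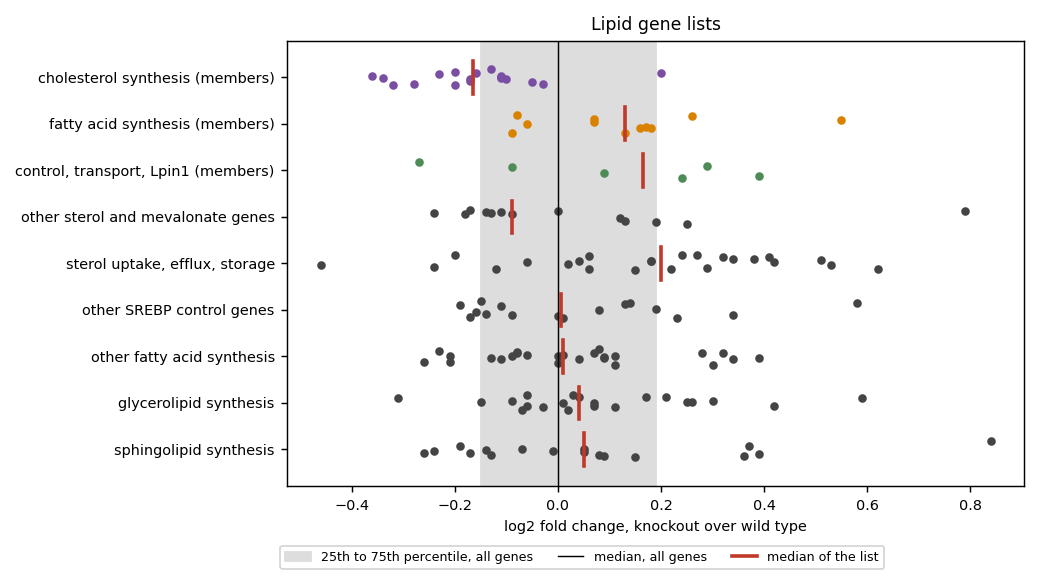
Log2 fold change, knockout over wild type, of the tested genes of the 3 member groups (coloured) and of 6 neighbouring lists (grey points), with each list's median in red and the 25th to 75th percentile of all genes shaded. The cholesterol synthesis median of -0.16 lies just below the shading, and that of sterol uptake, efflux and storage, 0.2, just above it.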

How the data were processed

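Stranded mRNA libraries were made from 6 mice. The submitters' processing notes name GRCm38, Trimmomatic 0.38, STAR 2.6.0a and RSEM 1.3.0, and neither annotation nor strand setting is given in the sources used here. Per the file headers, the authors deposited RSEM expected counts (estimated, not normalized), TPM, FPKM and isoform-weighted lengths per gene. FPKM entered no test. Of 36793 gene IDs, 35243 matched a symbol in GENCODE vM21. In the deposited expected counts, 27.09 to 27.88% of detected genes per library were not whole within 1e-09.

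Expected counts were rounded, and the counts of knockout libraries 5 and 6 were summed. Tests used edgeR 4.0.16 in R 4.3.3 (filterByExpr, TMM, quasi-likelihood, genotype only, two-sided) with Benjamini-Hochberg adjustment over 16809 genes. Standard errors were taken as the size of each log2 fold change over the root of its F statistic. DESeq2 1.42.0, limma 3.58.1, log2(TPM + 1), GC offsets, other filters and left-out libraries were alternatives. The scripts were tested on simulated data. Members, lists and motifs were chosen with earlier results of these data known. All members are named, and of each neighbouring list the 3 genes with the smallest p, of which 1 is not reported here. Nothing in the labels beyond mouse numbers describes the animals, so p-values measure the spread between these samples.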

Additional observations from a re-analysis of the deposited data

How the results depend on the processing

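Genes past an FDR of 0.05 numbered 16, against 144 with 6 separate libraries, 81 without a filter, 246 in DESeq2, 27 in limma-voom with quality weights, 27 with GC offsets, and 851 in DESeq2 and 365 with GC offsets on 6 libraries, both added after seeing the data. They ranged from 7 to 16 with replicates left out, at 7 without knockout 4, 8 without wild type 2 and 10 without wild type 3. Of the 35 lipid genes 0 passed, and 2 were lower in DESeq2 on 6 libraries. Values that turned sign were Srebf2 at -0.04 (GC offsets), Dhcr7 at 0.04 (6 libraries) and 0.05 (DESeq2, 6 libraries) and Elovl6 at 0.02 (GC offsets, 6 libraries). With replicates left out, those that turned ranged from -0.07 to 0.58 for Srebf1, -0.32 to 0.42 for Srebf2, -0.17 to 0.56 for Scap, -0.19 to 0.01 for Acly, -0.21 to 0.04 for Mvk, -0.10 (-0.08 with single libraries left out) to 0.02 for Sqle, -0.27 to 0.18 for Dhcr7, -0.13 to 0.05 for Elovl6, -0.002 to 0.32 for Scd2, -0.12 to 0.25 for Fads1 and -0.07 to 0.47 for Grin1. Without knockout 4, or without 5 and 6, the knockout is 1 sample, assumed to vary like wild type. The cause was not tested. Among 54 genes named, 887 alternative values kept direction and side of the threshold, 17 turned, 14 came to pass the threshold and 0 ceased to. No paired analysis was possible because knockout mice are numbered 4 to 6 and wild-type mice 1 to 3, with no number in common. With 2 knockout samples, 1 of them 2 summed libraries, small differences cannot be resolved.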
